A study of Mus musculus with 8 samples.

Results

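Transcripts of the testis-specific serine kinases were followed in bulk RNA sequencing of whole testis from adult mice, with 4 knockout libraries of genotype Ssty2-/- and 4 libraries from wild-type (WT) testis. Ssty2 is a multicopy gene of the Y chromosome that spermatids express, and the design asks which genes differ between testes with and without it. The Ensembl gene taken for Ssty2 held 0 counts in each knockout library, as the labels have it. This allows up to 0.133 to 0.166 CPM by library (CPM are counts scaled to a common library size). That limit uses library totals alone, while the other CPM also carry a scaling factor per library. Wild-type replicates 1 to 4 held 56, 78, 83 and 45 counts of this gene (2.92 ± 0.552 CPM, mean ± SD, n = 4). Any other copies in the count table were not looked at. The members are the kinase genes Tssk1, Tssk2, Tssk3, Tssk4 and Tssk6 and the gene of their substrate Tsks. They were matched by symbol and are 6 of the 56748 genes in the count table. The labels give neither the strain nor an age beyond adult, and do not state whether each replicate is its own animal. The p-values therefore rest on the variation among these 8 libraries, which may be technical.

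The TSSK proteins are small protein kinases of the calcium/calmodulin-dependent kinase group that are made almost only in germ cells after meiosis, in the round and elongating spermatids that build the sperm head and tail. TSSK1 and TSSK2 bind and phosphorylate TSKS, a protein without a kinase domain that gathers with them near the chromatoid body and the base of the forming tail. TSSK6 works during chromatin condensation and is activated by the co-chaperone TSACC together with HSP90. Male mice that lack these kinases, alone or in pairs, have been described with impaired sperm formation or fertility.

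All 6 transcripts were higher in the knockout libraries. The rise was between 1.25-fold (Tssk1) and 1.59-fold (Tssk3), and the median log2 fold change was 0.43. By the edgeR quasi-likelihood test with Benjamini-Hochberg adjustment over 21952 tested genes, all 6 passed an adjusted p of 0.05, where 26.2% of tested genes were called higher and 53.5% were called in either direction. All 6 also had every knockout library above every wild-type library, which held for 22.7% of tested genes, while 46.7% had groups that did not overlap in one direction or the other. The median log2 fold change over all tested genes was -0.01, and most spermatid markers rose as well. Each member passed the filter on low counts, with between 1831 and 13892 counts in every library. In whole testis, a change in the share of a cell type and a change in RNA per cell cannot be told apart.

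**Figure D1:**
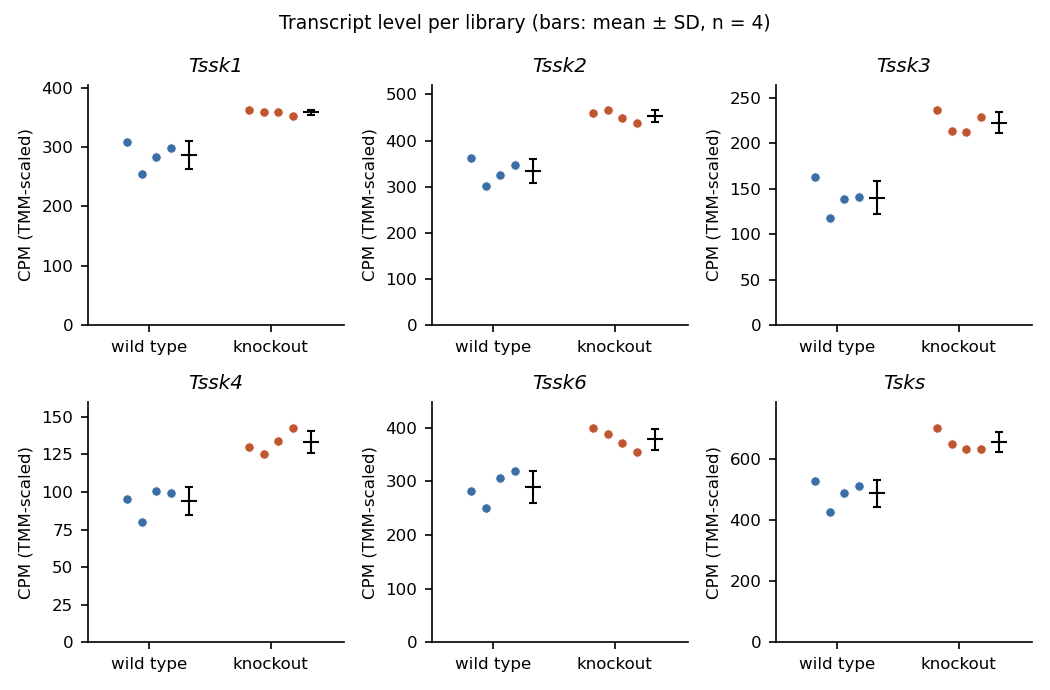
Level of each member in every library, in CPM scaled by TMM (a factor per library that evens out composition) on an axis from 0, with wild-type libraries in blue, knockout libraries in orange and bars for the mean ± SD (n = 4). In each of the 6 panels all knockout points lie above all wild-type points; for Tssk3 the knockout libraries reach from 212 to 236 CPM and the wild-type libraries from 118 to 163 CPM.

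Tssk1 and Tssk2, the kinase genes whose products act on TSKS, lie next to each other on chromosome 16 on the same strand, each annotated with 1 exon. They are shown here with the stretch before their start, together with that of Tsks, because the 3 encode the enzyme pair and its substrate and rose together. The sequences are RefSeq's, build GRCm38.p6, all on the plus strand and written 5′ to 3′; the submitters' processing notes name mm39 for the counts. They begin 200 bases before the RefSeq start and stop before the first annotated exon base, at chr16:17894003-17894202 for Tssk1, chr16:17898437-17898636 for Tssk2 and chr7:44943040-44943203 for Tsks. Capitals mark matches on either strand to TGACTTCA or CTTTGTGAC.
Tssk1: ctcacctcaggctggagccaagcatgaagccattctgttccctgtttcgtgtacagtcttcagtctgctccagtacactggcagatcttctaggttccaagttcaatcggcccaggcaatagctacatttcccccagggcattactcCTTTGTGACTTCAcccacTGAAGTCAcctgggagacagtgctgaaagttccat
Tssk2: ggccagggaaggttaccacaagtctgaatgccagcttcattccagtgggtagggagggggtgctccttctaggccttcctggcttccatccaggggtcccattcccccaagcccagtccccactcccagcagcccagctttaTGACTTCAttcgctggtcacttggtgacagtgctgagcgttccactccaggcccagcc
Tsks: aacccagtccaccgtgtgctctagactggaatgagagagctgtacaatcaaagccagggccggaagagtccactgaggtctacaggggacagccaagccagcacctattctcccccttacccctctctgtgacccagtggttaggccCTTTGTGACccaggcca

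Both motifs were picked by reading these promoters, so a match is a description of the letters and no more. TGACTTCA, or its reverse complement TGAAGTCA, was found on both strands of the Tssk1 window, at positions -48 and -35 from the start, and at -58 before Tssk2. Of 32851 RefSeq promoter windows of 300 bases, 1.52% hold it. CTTTGTGAC stands at -53 in both Tssk1 and Tsks, and its reverse complement GTCACAAAG at -144 before Tssk6. Either form is held by 0.521% of windows. In Tssk1 the CTTTGTGAC and TGACTTCA matches overlap. The palindrome TGACGTCA, a binding sequence of the spermatid activator CREM, is in 1.79% of windows and was not matched in the windows of these 6 genes. The Tssk3 and Tssk4 windows held none of these letters. Shorter forms of the palindrome were not searched for.

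Tssk1 measured 309, 255, 283 and 299 CPM in wild-type replicates 1 to 4 and 362, 359, 359 and 353 CPM in knockout replicates 1 to 4. The knockout libraries were close to each other (358 ± 3.92 CPM, mean ± SD, n = 4), while the wild-type libraries were spread (286 ± 23.4 CPM, n = 4), with replicate 2 lowest. The log2 fold change was 0.32 (95% interval 0.20 to 0.44, edgeR adjusted p = 0.000200), or 1.25-fold, the smallest of the 6.

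Tssk2 measured 363, 303, 326 and 347 CPM in wild type and 461, 466, 448 and 438 CPM in knockout. Its group means were 335 ± 26.0 and 453 ± 12.7 CPM (n = 4 each), and again wild-type replicate 2 was lowest. The log2 fold change was 0.44 (95% interval 0.32 to 0.56, edgeR adjusted p = 1.06e-05). Reads could be shared between the pair: 170 of the 1358 words of 31 bases in the Tssk2 transcript, or 12.5%, also occur in Tssk1, and how such reads were counted is not given in the sources used here.

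The balance within the pair was compared library by library, which cancels the scaling. The log2 ratio of Tssk1 to Tssk2 counts was -0.22 ± 0.0176 in wild type and -0.34 ± 0.0286 in knockout (SD, n = 4 each), a difference of -0.11. The ratio lay between -0.25 and -0.21 in wild type and between -0.37 and -0.31 in knockout, with no overlap. The two-sided exact permutation p was 0.0286, the smallest that 4 against 4 allows. Adjusted over the 14 ratios compared it was 0.10, so the difference did not pass. It could pass only if most of the 14 ratios reached that smallest p.

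Tsks, the substrate gene on chromosome 7, was the most abundant of the 6 in CPM. It measured 530.3, 428, 489 and 511 CPM in wild type and 705, 652, 636 and 634 CPM in knockout. The means were 490 ± 44.3 and 657 ± 32.96 CPM (n = 4 each), a log2 fold change of 0.42 (95% interval 0.29 to 0.56, edgeR adjusted p = 3.90e-05). Wild-type replicate 2 was lowest and knockout replicate 1 highest. Relative to the mean of Tssk1 and Tssk2, Tsks was 0.66 ± 0.0266 in wild type and 0.70 ± 0.0567 in knockout on the log2 scale, and these ranges overlapped (exact permutation p = 0.20, adjusted p = 0.28, n = 4 each).

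Tssk3, on chromosome 4, encodes a kinase that PDPK1 phosphorylates, and it had the largest log2 fold change of the 6. It measured 163, 118, 138 and 141 CPM in wild type and 236, 213, 212 and 229 CPM in knockout. Its mean went from 140 ± 18.3 to 223 ± 11.8 CPM (n = 4 each), a log2 fold change of 0.67 (95% interval 0.51 to 0.83, edgeR adjusted p = 2.99e-06). Wild-type replicate 1 was highest in its group and still well below the lowest knockout library. None of the 1250 words of 31 bases in its transcript occurred in another gene.

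Tssk4, on chromosome 14, encodes a kinase that phosphorylates the outer dense fibre protein ODF2, and it was the least abundant of the 6. It measured 95.2, 80.1, 100.3 and 99.5 CPM in wild type and 130.2, 125, 134 and 143 CPM in knockout. The log2 fold change was 0.51 (95% interval 0.36 to 0.65, edgeR adjusted p = 2.03e-05), with means of 93.8 ± 9.39 and 133 ± 7.403 CPM (n = 4 each). Knockout replicate 4, which had the lowest level of 4 of the other genes in its group, had the highest level of Tssk4.

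Tssk6, on chromosome 8, measured 282, 250.02, 307 and 319.8 CPM in wild type and 401, 388, 371 and 356 CPM in knockout. Replicate 4 was the highest wild-type library and also the lowest knockout library, and the groups did not overlap. The means were 290 ± 30.7 and 379 ± 19.7 CPM (n = 4 each), a log2 fold change of 0.39 (95% interval 0.24 to 0.53, edgeR adjusted p = 0.000186). Of its 1335 exon bases, 375 overlap exons of Ndufa13, a respiratory complex I subunit gene on the opposite strand, and 15 overlap Yjefn3. The strand setting of the counting is not given, so reads from the overlaps cannot be told apart. Ndufa13 had 83.4 ± 6.14 CPM in wild type and 86.8 ± 7.97 CPM in knockout (edgeR adjusted p = 0.523), and Yjefn3 fell from 6.38 ± 1.498 to 0.660 ± 0.326 CPM (log2 fold change -3.27, adjusted p = 7.59e-08). Their part in the Tssk6 value was not tested.

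Wild-type replicate 2 had the lowest level of all 6 members in its group. Without it the log2 fold changes ran from 0.26 (Tssk1) to 0.59 (Tssk3), and all 6 were still called. When libraries were scaled by their totals alone, the median of all tested genes moved to -0.15, calls split into 3848 higher and 8255 lower instead of 5744 and 6008, and the members stayed higher by between 0.18 (Tssk1) and 0.53 (Tssk3).

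To compare levels between genes, CPM were divided by the length of annotated exons. In wild type Tsks stood at 253 ± 22.9 CPM per kilobase, Tssk2 at 241 ± 18.8 and Tssk6 at 217 ± 23.0, and the ranges of neighbours in this order overlapped. Tssk3 followed at 109 ± 14.3, Tssk1 at 77.4 ± 6.31 and Tssk4 at 54.6 ± 5.47 (SD, n = 4 each), with no overlap from Tssk6 down. The order of the 6 genes was the same in knockout, from 339 ± 17.0 for Tsks to 77.5 ± 4.31 for Tssk4. The place of Tssk1 rests on its annotated length of 3700 bases. With the RefSeq gene length of 1451 bases its wild-type level was 197 ± 16.1 CPM per kilobase, between Tssk6 and Tssk3.

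**Figure D2:**
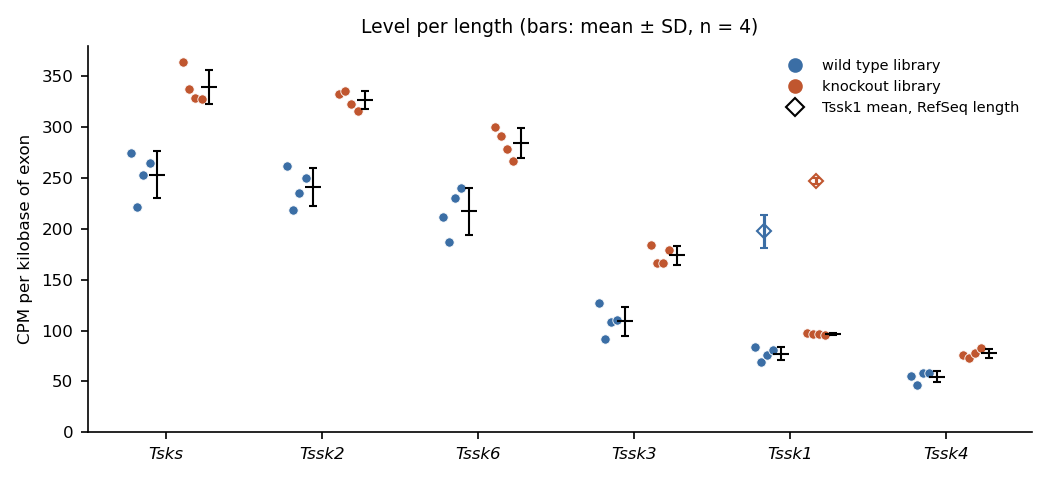
Level per kilobase of annotated exon in every library (vertical axis, TMM-scaled CPM per kilobase, from 0), with the genes in order of their wild-type mean, blue points for wild type, orange for knockout and bars for the mean ± SD (n = 4). Open diamonds give the Tssk1 means with the RefSeq length; 197 against 77.4 CPM per kilobase in wild type shows how far its place depends on the gene model.

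Other spermatid genes rose in the same libraries, where 26.2% of all tested genes were called higher. Of 20 round spermatid markers 19 were tested and all 19 rose, from Capza3 (log2 fold change 0.21) to Tex21 (0.85), and the median was 0.48. Izumo1, the sperm protein gene for egg binding, rose by 0.85 and the sperm channel gene Catsper4 by 0.79. Of 17 elongating spermatid markers 16 rose, with a median of 0.55, and Prm3 was not called (0.02). Akap4, the fibrous sheath scaffold gene, rose by 0.70, Spem1 by 0.66 and Oaz3 by 0.59. The summed level of the round spermatid list was 3758 to 4190 CPM in wild type and 5709 to 5765 CPM in knockout.

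Markers of the other cells moved the opposite way in the same libraries. All 7 tested spermatogonial markers fell (median log2 fold change -0.78), Dmrt1 and Uchl1 among them, and 5 of 7 spermatocyte markers fell, Tex101 (-0.50) and Dmc1 (-0.70) among them. Of 10 Sertoli cell markers 9 fell (median -0.61; Inha -0.97) and all 7 Leydig cell markers fell (median -0.996; Cyp17a1 -1.16). Falls were called for 27.4% of all tested genes, and also for 4 of 5 peritubular myoid (of which Cnn1 was not called in 7 of 13 alternatives), 4 of 6 macrophage and 3 of 4 endothelial markers, among them Myh11 (-0.59), Mrc1 (-0.56) and Cdh5 (-0.46). The summed Leydig list was 1575 to 1855 CPM in wild type and 856 to 933 CPM in knockout, and the Sertoli list 1921 to 2185 and 1294 to 1472 CPM. No erythroid marker of 3 tested was called by edgeR at an adjusted or unadjusted p under 0.05, nor by DESeq2. Of 5 genes listed for epididymis only Defb19 passed the filter on low counts, and it fell by 0.44. That gene alone does not show whether epididymal tissue was present. The part of cell composition in the rise of the kinases was not tested.

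**Figure D3:**
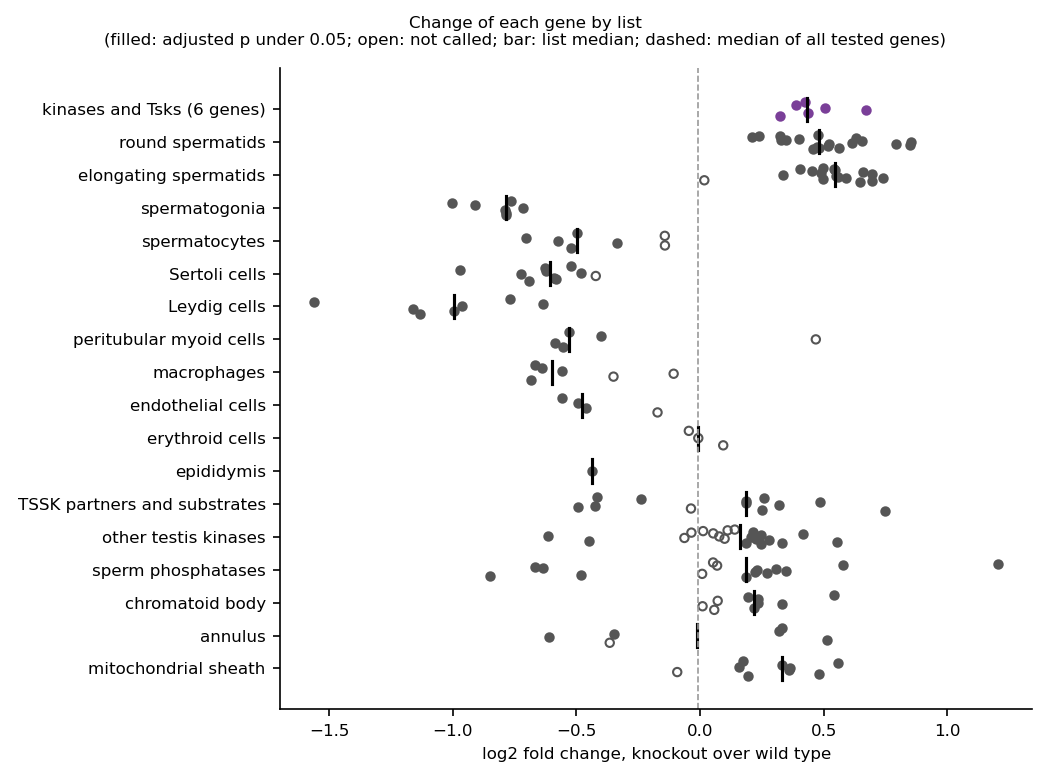
Log2 fold change of each tested gene, knockout over wild type (horizontal axis), in rows for the 6 members and the 17 gene lists, with filled points for adjusted p under 0.05, open points for genes not called and a bar at each row's median. The members, between 0.32 and 0.67, lie within the span of the round spermatid markers, 0.21 to 0.85, and to the right of every spermatogonial, Sertoli and Leydig cell marker.

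The members were next set against genes of the same cells. In each library the log2 count of a member was compared with the mean log2 count of the round and of the elongating spermatid markers, so that the scale of the library cancels. Relative to round spermatid markers the knockout-minus-wild-type differences were -0.19 for Tssk1, -0.07 for Tssk2, 0.17 for Tssk3, -0.002 for Tssk4, -0.12 for Tssk6 and -0.09 for Tsks. Only for Tssk1 did the groups not overlap (1.43 ± 0.0937 in wild type, 1.25 ± 0.0328 in knockout, exact permutation p = 0.0286, adjusted p = 0.10, n = 4 each). Relative to elongating spermatid markers Tssk1 (-0.20) and Tssk2 (-0.09) had all 4 knockout libraries below all 4 wild-type libraries, each with an exact permutation p of 0.0286 and an adjusted p of 0.10. Tssk3 was higher by 0.15 with 1 knockout library inside the wild-type range (exact permutation p = 0.0571, adjusted p = 0.13). None of the 14 ratios passed after adjustment. A ratio could pass only if most of the 14 reached 0.0286, the smallest exact p that 4 against 4 allows. Not passing therefore does not show that a ratio was unchanged. The round spermatid reference includes Actl7b, which had too few counts to be tested. In an unplanned alternative without Actl7b, no ratio to the round spermatid markers changed sign. With the median log2 count of the round spermatid markers as reference, the differences were -0.32 for Tssk1, -0.20 for Tssk2, 0.03 for Tssk3, -0.14 for Tssk4, -0.25 for Tssk6 and -0.22 for Tsks. That median rests on the markers of middle level, which were not the same genes in both groups. By mean CPM they were Spaca4 and Spaca1 in wild type and Catsper4 and Spaca1 in knockout. It is not the median change of the tested markers, which was 0.48 beside a mean of 0.51. The size of these differences thus depends on how the reference is formed, and this alternative does not show how they stand against a typical marker.

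The members were also compared with each other. Relative to the mean of the other 5, a comparison added after the values were seen and made for all 6 genes, Tssk3 went from -0.92 ± 0.105 to -0.66 ± 0.0644 on the log2 scale and Tssk1 from 0.33 ± 0.0362 to 0.16 ± 0.0317. In both cases the groups did not overlap (exact permutation p = 0.0286, adjusted over 6 ratios p = 0.0857, n = 4 each), and neither passed. A ratio could pass only if most of the 6 reached this exact p, the smallest that 4 against 4 allows. For Tssk2, Tssk4, Tssk6 and Tsks the groups overlapped, with differences of -0.03, 0.06, -0.08 and -0.04.

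**Figure D4:**
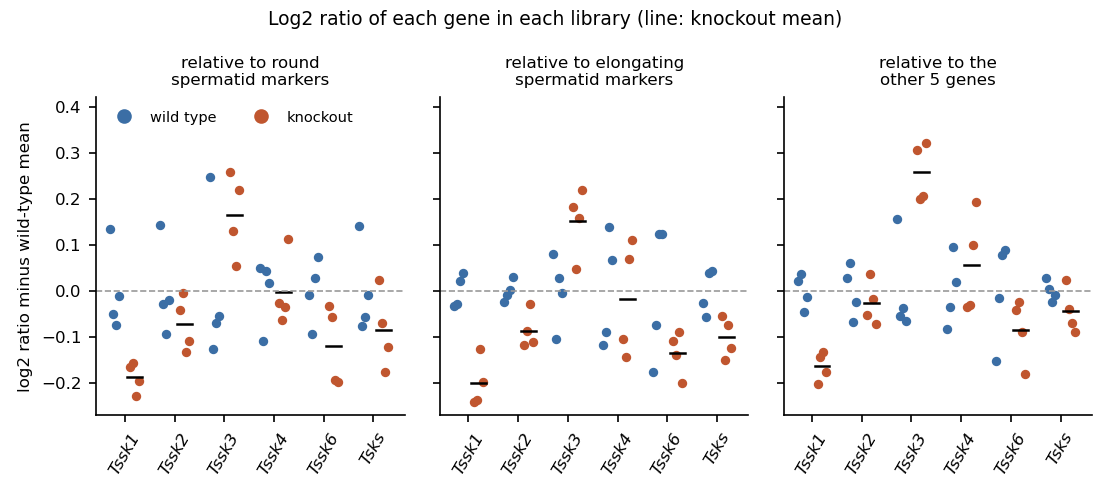
Log2 ratio of each member in every library, minus its wild-type mean (vertical axis), relative to round spermatid markers, to elongating spermatid markers and to the other 5 members; blue points are wild-type libraries, orange points knockout libraries and the line their mean. Tssk1 lies below the wild-type points in all 3 panels, with knockout means of -0.19, -0.20 and -0.16, and Tssk3 lies highest, at 0.17, 0.15 and 0.26.

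Genes tied to the kinases by known function went both ways. Of 12 partners and substrates 7 rose and 4 fell, with a median log2 fold change of 0.18, where 26.2% of all tested genes rose and 27.4% fell. Tssk5, a further family member, measured 18.1, 18.5, 20.2 and 16.4 CPM in wild type and 32.4, 24.6, 32.4 and 33.9 CPM in knockout (log2 fold change 0.75, SE 0.0996, edgeR adjusted p = 1.28e-05), with no overlap. Odf2, the substrate of TSSK4, rose from 2917 ± 171 to 4086 ± 81.0 CPM (0.49, adjusted p = 1.09e-06). Tsacc, the gene of the co-chaperone of TSSK6, went from 76.0 ± 6.33 to 90.4 ± 6.63 CPM (log2 fold change 0.25, adjusted p = 0.00656). The Tsacc groups overlapped, and with library totals the log2 fold change was 0.11 (adjusted p = 0.197), so that call rests on the scaling. Hsp90ab1 and Hspa8, general chaperone genes, fell by 0.49 and 0.42, while Hsp90aa1, the form that germ cells hold in large amounts, was not called (2314 ± 144 and 2256 ± 156 CPM).

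The remaining partners fell into the same 2 directions. Pdpk1, the gene of the kinase that acts on TSSK3, rose by 0.32, Crem by 0.26, Ppp1cc by 0.19 and Spag16, an axoneme gene and TSSK2 substrate, by 0.18. Creb1 fell by 0.24 and the histone gene H2ax by 0.42. With library totals 3 of the 12 were called higher instead of 7, where 3848 of 21952 tested genes were called higher.

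Of 20 genes of other protein kinases of the testis 10 rose and 2 fell (median log2 fold change 0.16). Over all tested genes 26.2% were called higher and 27.4% lower. Haspin, the histone H3 kinase gene, rose by 0.42 and Hipk4, a kinase gene of sperm head shaping, by 0.55, while Prkacb fell by 0.61 and Stk31, a gene of earlier germ cells, by 0.45. Among 15 phosphatase genes 8 rose and 4 fell (median 0.19). Dusp21, an X-linked dual-specificity phosphatase gene, rose by 1.204 and Dusp13 by 0.58, whereas the catalytic subunit genes Ppp1ca and Ppp2ca fell by 0.85 and 0.64. With library totals, where 3848 of 21952 tested genes were called higher and 8255 lower, the kinase list had 3 higher and 4 lower. The phosphatase list then had 5 higher.

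Genes of the chromatoid body, the annulus and the mitochondrial sheath were described by 3 lists. Beside them, 26.2% of all tested genes were called higher and 27.4% lower. With library totals 3848 of 21952 were called higher. In the chromatoid body list, a perinuclear RNA granule of round spermatids, 6 of 9 rose (median 0.22), led by Kif17 (0.54) and Tdrd6 (0.33), but only 2 with library totals, under which Tdrd7 and Mael were not called. In the annulus list, the ring at the end of the sperm midpiece, Septin4 (0.51), Slc26a8 (0.33) and Septin12 (0.32) rose and Septin6 (-0.61) and Septin7 (-0.35) fell, with a median of -0.01 over 6 genes. The last 2 are septins of many tissues. In the mitochondrial sheath list 8 of 9 rose (median 0.33), Smcp by 0.56, Gykl1 by 0.48, Spata19 and Armc12 each by 0.36, and 5 with library totals.

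The tested genes that flank the members had log2 fold changes between -0.09 (Gatad2a) and 0.54 (Cpt1c). Yjefn3, which overlaps Tssk6 on the opposite strand, lies outside this range at -3.27 (edgeR adjusted p = 7.59e-08). Next to the Tssk1 and Tssk2 pair, Dgcr2, whose exons overlap Tssk1 by 63 bases on the opposite strand, rose by 0.22 (edgeR adjusted p = 0.00719; 0.08 and not called with library totals). On the other side Ess2 was not called (0.10, adjusted p = 0.251; -0.04 with library totals). Bsdc1 and Fam229a, on either side of Tssk3 and on the opposite strand, rose by 0.33 and 0.29, the latter not called with library totals. Beside Tssk6, Gatad2a was not called (-0.09, adjusted p = 0.235), though it was with library totals (-0.23, adjusted p = 0.00664). Beside Tsks, Ap2a1 rose by 0.28 and Cpt1c by 0.54. Next to Tssk4 lie gene models with few counts, Gm49747 (2.25 ± 0.269 and 2.22 ± 0.581 CPM, not called) and Gm49299 (1 count in all 8 libraries).

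Likeness to other genes was measured as the root mean square difference of log2 CPM profiles over the 8 libraries, each centred on its own mean. The comparison covered 13097 tested genes with a mean log2 CPM of at least 1, leaving out names of gene models, clones and pseudogenes. This measure is a description, since all profiles that rise in knockout by a like amount come out near each other. The nearest profiles were Atoh8 (0.028) and Dkkl1 (0.029) for Tssk1, Eef1d (0.020) and Gpat4 (0.026) for Tssk2, and Mul1 (0.024) and Azin2 (0.028) for Tsks. Tssk4 was nearest to Spatc1l (0.036) and Gpat3 (0.038), Tssk3 to Cacna1a (0.047) and Cd96 (0.051), and Tssk6 to Ehd1 (0.061) and Ccdc42 (0.062). Within the family Tssk2 and Tsks were closest, at 0.041, where Tssk2 ranked 17th among the genes compared for Tsks. Tssk1 and Tssk3 were farthest apart, at 0.19.

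Library totals ran from 18036708 to 24415587 counts. The 6 members held between 0.205% and 0.218% of all counts in knockout and between 0.153% and 0.180% in wild type.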

How the data were processed

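Bulk RNA sequencing of 8 adult testis libraries was used, 4 per genotype. The authors deposited raw counts per Ensembl gene, 1 column per library, with no normalization. The submitters' processing notes name mm39 as the build and list DESeq2, featureCounts, STAR, Trimmomatic and FastQC as tools. Their versions, the strand setting and the handling of multi-mapping reads were not given in the sources used here. Per the labels' protocols, total RNA was extracted with TRIzol and DNase and libraries were made with a TruSeq kit.

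Names, exon lengths and neighbours came from GENCODE vM21 (GRCm38), which differs from the build of the counts; a symbol was found for 52125 genes and for every member. Counts were tested with edgeR 4.0.16 in R 4.3.3 (quasi-likelihood test, genotype as the only term, filterByExpr with a minimum count of 10 and total of 15, TMM factors, Benjamini-Hochberg over all tested genes, threshold 0.05). The test was checked on simulated data in which few genes changed, as many up as down. That check does not cover the choice of scaling. Fold changes are knockout over wild type; SE is the log2 fold change over the square root of F. CPM carry TMM factors. Ratios used counts plus 0.5 and two-sided exact permutation tests (Python 3.11.15). The named genes are the members, Ssty2, Tssk5, Tsacc, up to 4 genes per list with the smallest p, neighbours, overlapping genes and the 2 nearest profiles per member with a mean log2 CPM of at least 1; Pdpk1, Crem, Ppp1cc, Spag16, Creb1, H2ax, Hsp90aa1, Capza3, Prm3 and Septin7 were named after their values were seen. One gene that the rule names is not reported here. The members and all 17 lists were chosen with earlier results of these data known. Alternatives were DESeq2 1.42.0, library totals, RLE factors, no filter, a replicate block and leaving out each library. Depth was 18036708 to 24415587 counts. A count of 0 allows up to 3 counts, or 0.123 to 0.166 CPM by library, counting error only. These limits use library totals without TMM factors.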

Additional observations from a re-analysis of the deposited data

Results flagged for a closer look

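In wild type the log2 ratio of Tssk3 to the mean of the other 5 members was -0.76 in replicate 1, with the nearest other wild-type library at -0.96, a gap of 0.877 of the group's range. It lay far from the other 3 wild-type libraries, and all 4 knockout libraries were higher than it. In 52 groups of 4 values looked at, chance alone sets about 1 in 20 apart.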

How the results depend on the processing

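All 6 members were called higher under each of 13 alternatives (DESeq2 and other edgeR fits), with log2 fold changes from 0.18 (Tssk1, library totals) to 0.74 (Tssk3, leaving out 1 library). Over the 8 fits that leave out 1 library, genes called higher numbered 5017 to 5549 and lower 5367 to 5975. Same-numbered knockout and wild-type libraries deviated together by correlations of 0.0798, 0.0225, 0.0605 and 0.00201, too low in every pair for the level set for pairing, so the numbers were not taken to pair samples. Knockout replicates 1, 2 and 3 correlated best with the wild-type library of their own number and knockout replicate 4 did not, which is a hint from the data and not from the design. With a replicate block Tssk1 was 0.33, Tssk2 0.44, Tssk3 0.68, Tssk4 0.51, Tssk6 0.39 and Tsks 0.43, with 5915 genes higher and 6203 lower, and no member's call changed. Tssk4 relative to round spermatid markers changed sign with a pseudocount of 5 (0.0038) and ranged from -0.04 to 0.02 leaving out 1 library; relative to elongating spermatid markers that range was -0.06 to 0.03. Leaving out 1 library, 4 against 3 cannot give an exact p under 0.0571. With library totals Hba-a1 (-0.046), Ess2 (-0.042) and Ndufa13 (-0.085) changed sign, as did Hbb-bs with RLE factors (0.0013), none of them called. Leaving out 1 library, Hba-a1 ranged from -0.27 to 0.29, Hbb-bs from -0.34 to 0.19 and Gm49747 from -0.18 to 0.081. The cause of these changes was not tested. Library totals also moved the mitochondrial sheath list to 1 gene called lower.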
